A study of Homo sapiens with 8 samples.

Results

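ATF4 is the transcription factor at the centre of the integrated stress response. The genes described here are a list around ATF4 and amino acid supply. It has 19 cytoplasmic aminoacyl-tRNA synthetases, 8 enzymes that make amino acids or their folate-linked precursors, 7 amino acid transporters, and ATF4 itself with 5 of its targets or partners. Whether each gene on the list is a target of ATF4 was not tested. The list holds 40 genes, and a gene was kept where at least 1 of its probes had a detection p-value under 0.05 on 2 or more of the 8 arrays. On this rule 39 of the 40 genes were measured, out of 11182 genes on the arrays that passed it. The exception was SLC7A11, the cystine transporter xCT, whose single probe was detected on 1 array, so that SLC7A11 has no value below.

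In cells short of amino acids, or under stress of the endoplasmic reticulum, kinases phosphorylate the initiation factor eIF2α, general translation falls, and the ATF4 mRNA is translated more. ATF4 then binds, with a C/EBP partner, to a composite C/EBP-ATF response element in its target genes and raises the supply of amino acids and of charged tRNA. Because ATF4 is largely controlled at the level of translation, its mRNA on an array is not a measure of its protein. Tryptophanyl-tRNA synthetase, WARS1, stands out in the family as a gene long known to be induced by interferon.

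The cells were SW1353, an established human chondrosarcoma line used as a model of the chondrocyte. They were transfected with a non-targeting siRNA (AllStars, called siCon) or with siRNA against HDAC6 (siHDAC6), the largely cytoplasmic tubulin deacetylase. They were stimulated 24 h later with the cytokine IL-1α for 6 h, the time in the labels, or left without it. The study's methods also describe a wash and overnight serum-free culture between transfection and stimulation. A figure legend of the study gives 8 h of IL-1. Total RNA was hybridised to Illumina whole-genome arrays, 2 for each siRNA without the cytokine (siCon, siHDAC6) and 2 for each with it (siCon + IL-1, siHDAC6 + IL-1). All 8 arrays thus came from transfected cells. No other siRNA against HDAC6 was on the arrays, so an effect of this siRNA apart from the loss of HDAC6 was not tested. The study's methods describe a duplicate treatment with each siRNA, without saying whether these were separate experiments, so the p-values measure the spread between these arrays, which may be in part technical.

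The level of a gene is given as its log2 signal, and a gene was called at a limma adjusted p under 0.05 over all 11182 genes. The arrays detected 14315 to 16659 of 48803 probes, and the lowest detected log2 signal was 4.90 to 5.17, so a value near 5 is at the background. The targeted gene HDAC6 was 6.36 and 6.32 on the siCon arrays and 6.63 and 6.46 with IL-1, against 5.14 and 4.87 on the siHDAC6 arrays and 4.84 and 4.87 on those with IL-1. It was lower by a log2 fold change of -1.34 (SE 0.12, adjusted p 0.0020) without IL-1, and by a measured -1.69 (adjusted p 6.24e-04) with IL-1, where neither siHDAC6 array detected it. Of 13 chondrocyte markers SOX9, COL11A1 and HAPLN1 were detected on all 8 arrays and 7, among them ACAN and COMP, on none, while COL2A1 was detected on 4. Of 5 leukocyte markers PTPRC, CD14 and CD3E were detected on no array, LYZ on 5 and CD68 on 8. Of 4 endothelial markers CDH5 and KDR were detected on none, PECAM1 on 1 and VWF on 7, and of 5 epithelial markers CDH1 and KRT19 on none, EPCAM on 5, and KRT8 and KRT18 on 8.

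The response element was searched in the RefSeq promoter windows (GRCh38.p14, from 250 bases before to 50 after an annotated start site) of the genes, 33 of which had at least 1 window. The letters TGATGNAAN, on either strand, were found in 14 of these 33 genes (42.4%) and in 4.45% of all 27305 genes with a window. The 14 genes were AARS1, ASNS, CARS1, CEBPG, CHAC1, GARS1, IARS1, MARS1, NARS1, SLC1A4, SLC1A5, SLC3A2, SLC7A1 and TARS1. The matches in the genes that passed the test in at least 1 comparison below, and that in ASNS, a classical ATF4 target, are printed here with 10 bases on each side where the window holds them, and with the matched letters in capitals.
ASNS (chr7:97872458-97872486, minus strand): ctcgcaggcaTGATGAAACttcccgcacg
CARS1 (chr11:3057408-3057436, plus strand): tcctagaatcTGATGCAACcgccgccccg
SLC7A1 (chr13:29595663-29595691, minus strand): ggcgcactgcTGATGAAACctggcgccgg
CHAC1 (chr15:40953251-40953279, minus strand): ctggcaggagTGATGCAACggcaggggag
SLC3A2 (chr11:62881725-62881748, minus strand): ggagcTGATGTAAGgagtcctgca
The match began 68 bases before the start site in ASNS, 3 bases before it in CARS1 and 210 bases before it in CHAC1. In SLC7A1 and SLC3A2 it lay inside the annotated transcript, 7 and 36 bases after the start site, and for SLC3A2 that is 1 of several annotated starts.

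WARS1 held no match to the response element in its windows. Once its values had been seen, 3 further motifs were searched on both strands: the core letters GAAANNGAA of the interferon-stimulated response element, the letters TTCNNNGAA of the gamma-activated site, and the letters GGGANNTTC of an NF-κB site. The first was found in 3 of the 33 genes (GARS1, IARS1 and WARS1, 9.09%) and in 9.86% of all genes. The second was found in 4 (CARS1, SLC3A2, TARS1 and WARS1, 12.1%) against 9.38%, and the third in SLC3A2 alone (3.03%) against 5.09%. Among the 33 genes both interferon motifs occurred together in WARS1 only, in the 250 bases before 1 of its start sites. The share of all genes holding both was not counted, and a role of these motifs in WARS1 was not tested. In the sequence below, the first motif in capitals is the gamma-activated site and the second the core of the interferon-stimulated response element.
WARS1 (chr14:100375348-100375597, minus strand): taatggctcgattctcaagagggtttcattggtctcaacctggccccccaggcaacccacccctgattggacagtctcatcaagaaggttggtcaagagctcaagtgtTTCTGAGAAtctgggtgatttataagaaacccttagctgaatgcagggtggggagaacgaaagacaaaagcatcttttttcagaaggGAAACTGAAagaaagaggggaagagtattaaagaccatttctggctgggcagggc

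**Figure D1:**
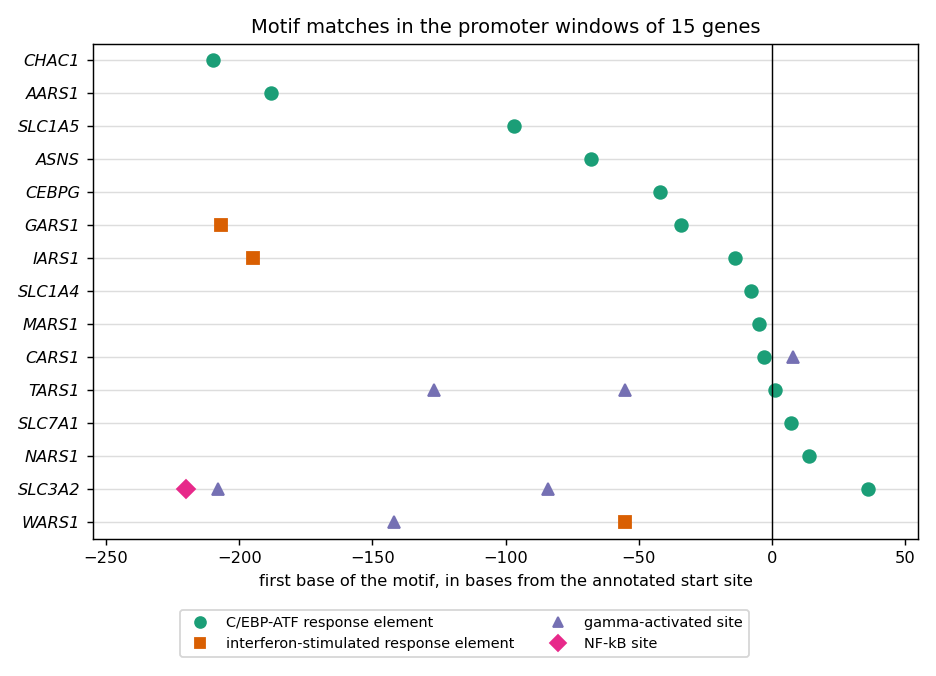
Position of each motif match (first base of the motif, in bases from the annotated start site of its window, x axis) in the 15 genes with any match. Most matches to the C/EBP-ATF response element lay between 97 bases before and 36 bases after the start site, with those of AARS1 and CHAC1 farther upstream at 188 and 210 bases, and WARS1 carried only interferon motifs.

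The first comparison asked what IL-1 did to these genes in cells with the control siRNA. Most of the listed genes did not pass the test: 5 of 39 genes were called (12.8%), against 20.6% of all genes. The order of these shares was not kept under every way of processing that was tried. WARS1, the arginine and lysine transporter SLC7A1 and the glutathione-degrading enzyme CHAC1 rose, while leucyl-tRNA synthetase LARS1 and the lipoprotein receptor VLDLR fell. That is 3 of 39 higher against 9.37% of all genes and 2 of 39 lower against 11.2%. The 3 include CHAC1, which passed the detection rule only through the siCon + IL-1 arrays, so its call is not independent of that selection. The median log2 fold change was -0.04 over the 39 genes and -0.09 over all genes, and 35 of the 39 changed by less than 0.5 on the log2 scale, against 81.9% of all genes. A lower signal from fewer expressing cells and one from less RNA per cell cannot be told apart on these arrays. ATF4 mRNA was 10.09 and 9.94 on the siCon arrays and 10.17 and 9.94 with IL-1, a log2 fold change of 0.03 (SE 0.13, adjusted p 0.89).

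Among the synthetases, the enzymes that charge tRNA with its amino acid, 2 of 19 (10.5%) passed the test with IL-1 in siCon cells. Of all genes 20.6% did. WARS1 was 8.62 and 8.55 on the siCon arrays, 10.88 and 10.89 on the siCon + IL-1 arrays, 8.38 and 8.38 on the siHDAC6 arrays, and 10.20 and 10.09 on the siHDAC6 + IL-1 arrays. Every IL-1 array lay above every array without IL-1, and the siHDAC6 + IL-1 arrays lay below both siCon + IL-1 arrays. IL-1 raised WARS1 4.92-fold in siCon cells (log2 2.30, SE 0.10, adjusted p 2.31e-06), the 129th largest rise of the 11182 genes. Both probes for WARS1 rose, by 2.39 and 2.20 on the log2 scale, and the call was kept without any 1 array and under every other way of processing that was tried.

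LARS1 was the other synthetase called. It was 9.28 and 9.14 on the siCon arrays, 8.90 and 8.55 with IL-1, 8.65 and 8.77 with siHDAC6, and 8.83 and 8.86 with siHDAC6 and IL-1. The siCon arrays were the highest of the 8, and the siCon + IL-1 pair spanned the values of both siHDAC6 groups. The fall with IL-1 in siCon cells was -0.48 (SE 0.14, adjusted p 0.042), and it still passed the threshold when siCon + IL-1 replicate 1 was left out, but not when any of the other 7 arrays was (adjusted p 0.0615 to 0.186). With the replicate number as a block its adjusted p was 0.0545, and LARS1 has no entry among the promoter windows.

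The other 17 synthetases ran from a log2 fold change of -0.57 for the seryl enzyme SARS1 (SE 0.25, adjusted p 0.15) to 0.33 for the lysyl enzyme KARS1 (SE 0.12, adjusted p 0.099). The alanyl enzyme AARS1 was 11.01 and 11.02 on the siCon arrays and 10.73 and 10.62 with IL-1, so that the groups did not overlap, and missed the threshold (-0.34, SE 0.11, adjusted p 0.059). The glutamyl-prolyl enzyme EPRS1 was at -0.30 (adjusted p 0.095). For the glycyl enzyme GARS1, whose window holds a response element, the value was -0.22 (adjusted p 0.20). Under the authors' own log2 values and under a fit with a trended, robust variance, AARS1, EPRS1 and SARS1 passed the test, all lower, while KARS1 passed it higher with the trended variance (adjusted p 0.037) and with an offset of 50 (0.0498). AARS1 did so under 6 alternatives in all (adjusted p 0.0061 to 0.045). The 15 mitochondrial synthetases that were measured, of 17 listed, gave no call in any of the 5 comparisons by the same limma test. Of all genes, 20.6% and 10.3% were called for IL-1 in siCon and siHDAC6 cells. The shares were 4.05% and 8.07% for siHDAC6 without and with IL-1, and 0.116% for the difference of the IL-1 responses. At an unadjusted p under 0.05 there were 0 of the 15 for IL-1 in either siRNA, 1 for siHDAC6 without IL-1 and 2 with it. The share of all genes at an unadjusted p under 0.05 was not counted, here or below.

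Of the 6 transporters measured SLC7A1 alone (16.7%) passed the test with IL-1, with either siRNA. Of all genes 20.6% passed it in siCon cells and 10.3% in siHDAC6 cells. SLC7A1, also called CAT1, carries cationic amino acids into the cell. It was 8.23 and 8.08 on the siCon arrays and 8.68 and 8.78 with IL-1, and 8.22 and 8.12 with siHDAC6 and 8.78 and 8.64 with siHDAC6 and IL-1. The 4 IL-1 arrays were the highest 4, whichever siRNA the cells had received. The log2 fold change was 0.57 in siCon cells (SE 0.11, adjusted p 0.0098, 1.49-fold) and 0.54 in siHDAC6 cells (adjusted p 0.021). In siCon cells the call was lost without siCon replicate 2 (adjusted p 0.069) or siCon + IL-1 replicate 2 (0.054), and in siHDAC6 cells without any 1 of the 4 arrays compared (0.058 to 0.13). With median scaling in place of quantile normalization both were lost (0.38, adjusted p 0.34, and 0.58, adjusted p 0.28). SLC3A2, the heavy chain of several amino acid exchangers, came nearest to the threshold among the others, at -0.41 (SE 0.13, adjusted p 0.060), and was called lower under 5 alternatives (adjusted p 0.0040 to 0.037). SLC7A5, the light chain of the large neutral amino acid transporter LAT1, was at 0.22 (adjusted p 0.16). The glutamine transporters SLC1A5 and SLC38A2 were at -0.04 and -0.30, neither of them called in the fit reported here. SLC38A2 was called lower under 2 alternatives (adjusted p 0.032 and 0.049).

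Of the 8 synthesis enzymes none passed the test with IL-1 in siCon cells, against 20.6% of all genes. None did so at an unadjusted p under 0.05 by limma. Under the authors' log2 values 1 of them, PSAT1, was called lower. Their log2 fold changes ran from -0.31 for the serine phosphatase PSPH to 0.20 for the mitochondrial folate enzyme MTHFD2. ASNS, asparagine synthetase, was at 0.07 (SE 0.16, adjusted p 0.80), and its 2 probes differed in sign, at -0.09 and 0.23. PHGDH, the first enzyme of serine synthesis from glucose, was at -0.17 (adjusted p 0.27).

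CHAC1 lay at the limit of detection. Its probe was detected on 3 of the 8 arrays, at 5.50 and 5.41 on both siCon + IL-1 arrays and at 5.06 on siHDAC6 replicate 2, and was not detected at 4.86 and 4.77 on the siCon arrays, 4.82 on siHDAC6 replicate 1, and 4.84 and 4.66 on the siHDAC6 + IL-1 arrays. The siCon + IL-1 arrays were thus higher than the other 6. CHAC1 passed the rule of 2 detected arrays only through this group, where it was highest. Its calls, all of which involve siCon + IL-1, are therefore not independent of that selection. They are included in the counts given here. IL-1 raised CHAC1 in siCon cells by a measured log2 fold change of 0.64 (SE 0.12, adjusted p 0.0087). Against the lowest detected signal of the siCon arrays that is at least 1.43-fold, a bound for this processing only. The call was lost without siCon replicate 2. Values this near the background depend on how it is treated: on the authors' log2 values the rise was 0.17 (adjusted p 0.044), with the offset of 50 it was 0.33, and with median scaling 0.54 (adjusted p 0.16). In siHDAC6 cells the log2 fold change was -0.19 (adjusted p 0.39).

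VLDLR, a lipoprotein receptor and target of ATF4, went the other way. It was 6.80 and 6.86 on the siCon arrays, 6.30 and 6.43 with IL-1, 6.51 and 6.56 with siHDAC6, and 6.37 and 6.22 with siHDAC6 and IL-1. The siCon arrays were above all the others. The fall of -0.47 (SE 0.11, adjusted p 0.020) was lost without either siCon array or without siCon + IL-1 replicate 1 (adjusted p 0.069 to 0.10). With every probe kept, detected or not, it was -0.21 (adjusted p 0.32). TRIB3, the pseudokinase that feeds back on ATF4, was at -0.19 (adjusted p 0.30), and CEBPG, a C/EBP partner of ATF4, at 0.14 (adjusted p 0.37).

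**Figure D2:**
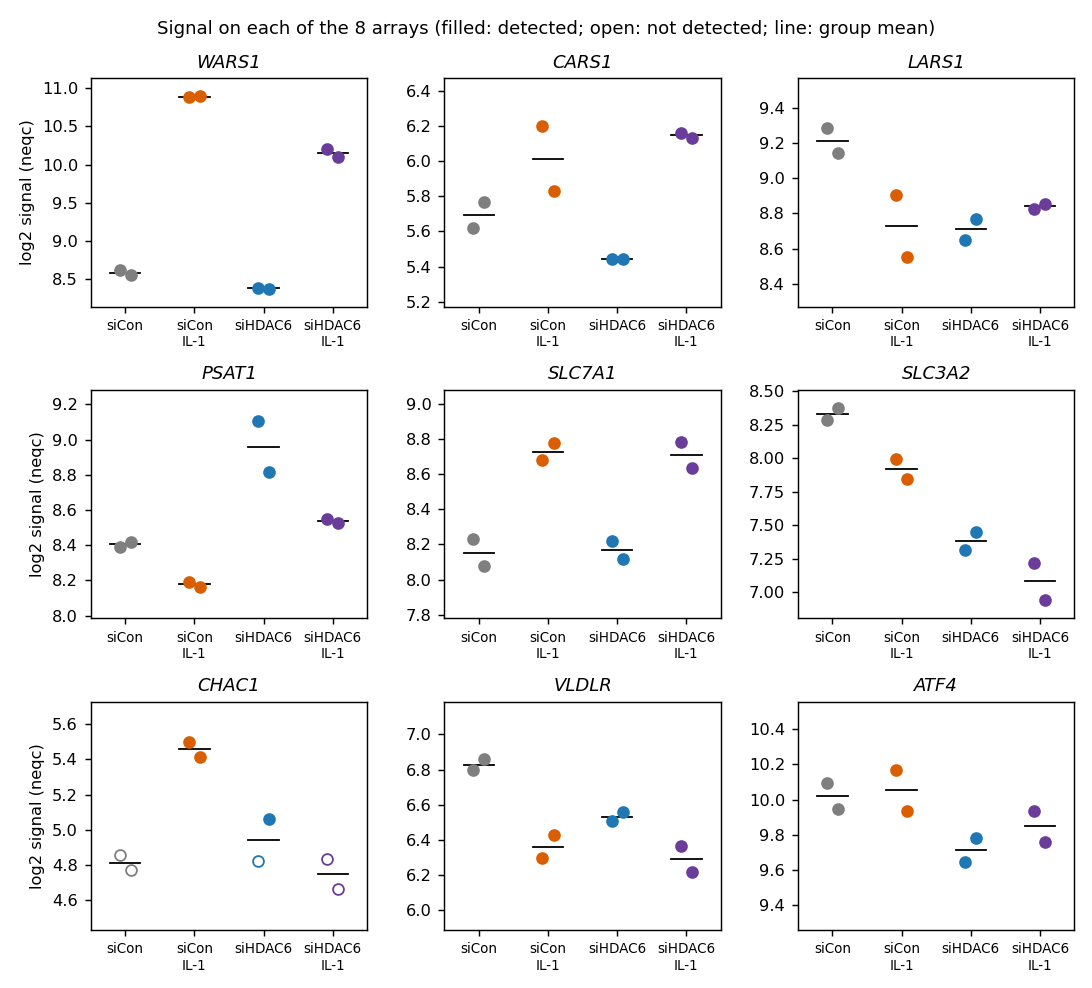
Log2 signal (y axis, a scale of its own for each gene) on each of the 8 arrays for the 8 genes called in at least 1 comparison and for ATF4, with group means as lines and open points where the probe was not detected. WARS1 reached 10.88 and 10.89 with IL-1 in siCon cells and 10.20 and 10.09 in siHDAC6 cells, and SLC3A2 was lower on all 4 siHDAC6 arrays than on the 4 siCon arrays.

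In siHDAC6 cells, IL-1 raised 3 of the 39 genes (7.69%) and lowered none in the fit reported here. Of all genes 10.3% were called in either direction, 5.99% higher and 4.27% lower. The 3 genes were WARS1, SLC7A1 and the cysteinyl enzyme CARS1. WARS1 rose 3.41-fold (log2 1.77, SE 0.10, adjusted p 1.37e-05), the 139th largest rise. CARS1 was 5.45 and 5.44 on the siHDAC6 arrays and 6.16 and 6.13 with IL-1, against 5.62 and 5.77 on the siCon arrays and 6.20 and 5.83 with IL-1. The siHDAC6 pair was the lowest of the 4 pairs, and the 2 groups with IL-1 overlapped. The rise of CARS1 was 0.70 in siHDAC6 cells (SE 0.14, adjusted p 0.016) and 0.32 in siCon cells (adjusted p 0.15). In siHDAC6 cells its call was lost without any 1 of the 4 arrays compared. Its rise there ran from 0.24 to 0.72 over the alternatives and the fits without 1 array. The difference between the responses of CARS1 in siHDAC6 and siCon cells was 0.38 with an unadjusted p of 0.086 and was not called.

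PSAT1, the serine synthesis aminotransferase, fell furthest with IL-1 in siHDAC6 cells, at -0.42, without passing the threshold (adjusted p 0.065). It was called lower under 5 alternatives (adjusted p 0.0054 to 0.038). On the authors' log2 values AARS1, IARS1, SHMT2 and SLC1A5 were called lower too (0.017 to 0.035), and SHMT2 also with the trended variance (0.044). SLC7A5 was called higher under 2 alternatives (0.039 and 0.041). The median over the 39 genes was again -0.04, against -0.06 over all genes. The responses in siCon and siHDAC6 cells were set against each other directly. By limma the difference of the IL-1 responses was called for 0 of the 39 genes, against 0.116% of all genes. At an unadjusted p under 0.05 there were 3. The share of all genes at that level was not counted, so these 3 are given for their values only. These were WARS1 at -0.53 (95% interval -0.85 to -0.21, adjusted p 0.29), LARS1 at 0.61 (0.17 to 1.06, adjusted p 0.37) and CHAC1 (adjusted p 0.17), for which no size is given because 2 of its 4 groups were not detected. On the authors' log2 values 1 gene, WARS1, was called for this difference, at -0.57 (adjusted p 0.0078), and under the other alternatives 0 genes were.

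**Figure D3:**
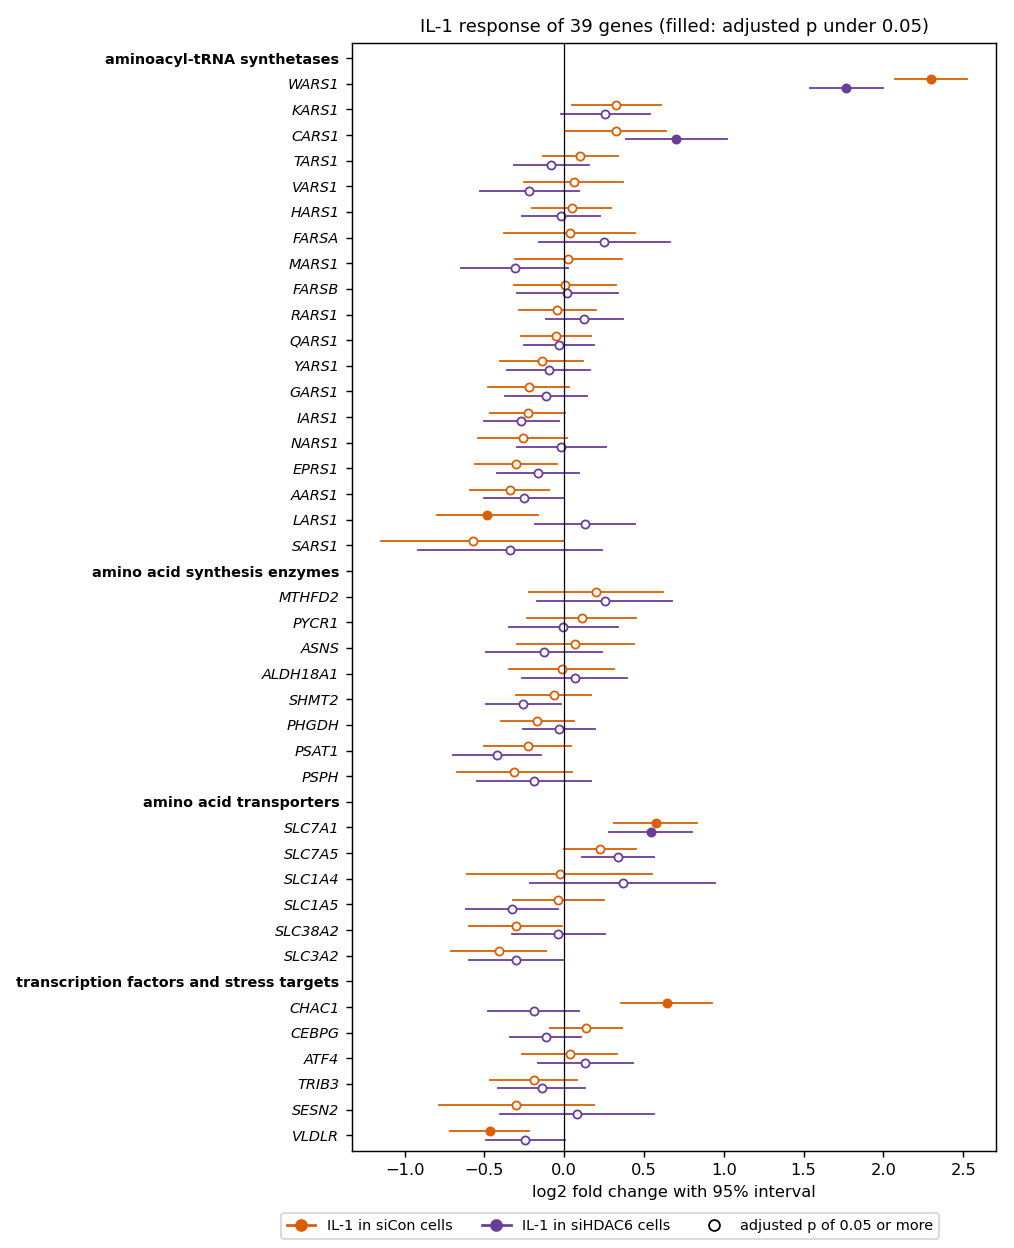
Log2 fold change with IL-1 (x axis, bars are 95% intervals) for the 39 genes in siCon and in siHDAC6 cells, grouped by role, filled where the adjusted p was under 0.05. WARS1 stood at 2.30 and 1.77, and the other 38 genes lay between -0.57 and 0.70.

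The second question was how the listed genes differed with siHDAC6. The comparisons with siHDAC6 share their arrays with those of IL-1, so the values below are not independent of those above. Without IL-1, 2 of 39 genes were called (5.13%), PSAT1 higher and SLC3A2 lower, against 4.05% of all genes called, 1.64% higher and 2.41% lower. With IL-1, 3 of 39 were called (7.69%), WARS1, SLC3A2 and CHAC1, all lower, and none higher. Of all genes 8.07% were called, 3.65% higher and 4.42% lower. The 3 include CHAC1, which passed the detection rule only through the siCon + IL-1 arrays, where it was highest. The median over the 39 genes was 0.01 without IL-1 and -0.02 with it, against 0.01 and 0.03 over all genes.

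SLC3A2, the heavy chain CD98hc that carries the light chains SLC7A5 and SLC7A11 to the plasma membrane, was the gene most lowered. It was 8.28 and 8.38 on the siCon arrays and 7.31 and 7.45 on the siHDAC6 arrays, and with IL-1 it was 7.99 and 7.84 in siCon cells and 7.22 and 6.94 in siHDAC6 cells. All 4 siHDAC6 arrays lay below all 4 siCon arrays. SLC3A2 was lower with siHDAC6 by a log2 fold change of -0.95 without IL-1 (SE 0.13, adjusted p 0.0084, 1.93-fold), the 88th largest fall of the 11182 genes. With IL-1 the log2 fold change was -0.84 (SE 0.13, adjusted p 0.010, 1.79-fold). Without IL-1 the call was lost without either siCon array or siHDAC6 replicate 1 (adjusted p 0.060 to 0.076). With IL-1 it was lost without siHDAC6 + IL-1 replicate 2 (-0.70, adjusted p 0.071) and with median scaling (-0.64, adjusted p 0.20).

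Its light chain SLC7A5 had no such difference. SLC7A5 was 5.90 and 5.96 on the siCon arrays and 5.97 and 5.94 on the siHDAC6 arrays, a log2 fold change of 0.02 (95% interval -0.20 to 0.25). With IL-1 its value was 0.14 (-0.09 to 0.36). Among the other transporters, SLC1A5 was at 0.32 without IL-1 (SE 0.12, adjusted p 0.20) and 0.03 with it, and SLC7A1 at 0.01 and -0.02.

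WARS1 was lower with siHDAC6 in the presence of IL-1 by -0.73 (SE 0.10, adjusted p 0.0060, 1.66-fold), on both of its probes (-0.83 and -0.64, adjusted p 0.0055 and 0.021). Without IL-1 its value was -0.20 (95% interval -0.43 to 0.02, adjusted p 0.30). The call was lost without siHDAC6 + IL-1 replicate 2 (-0.68, adjusted p 0.054) and with median scaling (-0.61, adjusted p 0.23). Of the other 18 synthetases none was called with siHDAC6 in the fit reported here, against 4.05% of all genes without IL-1 and 8.07% with it. LARS1 came nearest without IL-1, at -0.50 (adjusted p 0.090), and was at 0.11 with IL-1. The valyl enzyme VARS1 was at 0.40 without IL-1 (adjusted p 0.16) and AARS1 at -0.32 (adjusted p 0.15), and with IL-1 the 18 lay between -0.23 and 0.22. Without IL-1, LARS1 was called lower under 4 alternatives (adjusted p 0.010 to 0.024), AARS1 lower under 2 (0.018 and 0.024) and VARS1 higher under 1 (0.046). With IL-1, AARS1 was called lower on the authors' log2 values (0.036).

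CHAC1 was lower with siHDAC6 in the presence of IL-1 by a measured log2 fold change of -0.71 (SE 0.12, adjusted p 0.016). Neither siHDAC6 + IL-1 array detected it, so the fold is given as at least 1.42-fold, for this processing only. CHAC1 passed the detection rule only through the siCon + IL-1 arrays, so this call is not independent of that selection. The call was lost without any 1 of the 4 arrays with IL-1 (adjusted p 0.055 to 0.10), and on the authors' log2 values the change was -0.17 (adjusted p 0.059). ATF4 mRNA was 9.65 and 9.78 on the siHDAC6 arrays, below the siCon arrays, and 9.94 and 9.76 with IL-1. Its log2 fold change was -0.30 without IL-1 (SE 0.13, adjusted p 0.25) and -0.20 with IL-1 (adjusted p 0.38), and neither passed the test.

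PSAT1, in the serine branch of amino acid synthesis, and ALDH18A1, in the proline branch, had values of opposite sign with siHDAC6. PSAT1 was 8.39 and 8.42 on the siCon arrays and 9.10 and 8.82 on the siHDAC6 arrays, and with IL-1 it was 8.19 and 8.16 in siCon cells and 8.55 and 8.53 in siHDAC6 cells. In each condition both siHDAC6 arrays were above both siCon arrays. The rise was 0.55 without IL-1 (SE 0.12, adjusted p 0.045) and 0.36 with IL-1 (adjusted p 0.11). The first did not pass the threshold in any fit without 1 array. It also lost its call under 5 of 11 other alternatives, among them the replicate number as a block (adjusted p 0.065). With IL-1, PSAT1 was called higher with siHDAC6 under 2 alternatives (adjusted p 0.024 and 0.031). ALDH18A1, which makes the proline and ornithine precursor from glutamate, was 7.29 and 7.22 on the siCon arrays and 6.49 and 6.82 on the siHDAC6 arrays, and with IL-1 it was 7.17 and 7.31 against 6.84 and 6.61. All 4 siHDAC6 arrays were below all 4 siCon arrays, and the falls of -0.60 (SE 0.14, adjusted p 0.062) and -0.52 (SE 0.14, adjusted p 0.065) missed the threshold. ALDH18A1 was called lower in both comparisons under 5 alternatives (adjusted p 0.0087 to 0.032 and 0.024 to 0.037), among them the authors' log2 values and the trended variance. PYCR1, the next enzyme towards proline, was at -0.07 and -0.18, and PHGDH and PSPH, the other 2 steps of serine synthesis, were at -0.12 and 0.14 without IL-1. MTHFD2 was at -0.47 and -0.42 (adjusted p 0.20 for each).

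**Figure D4:**
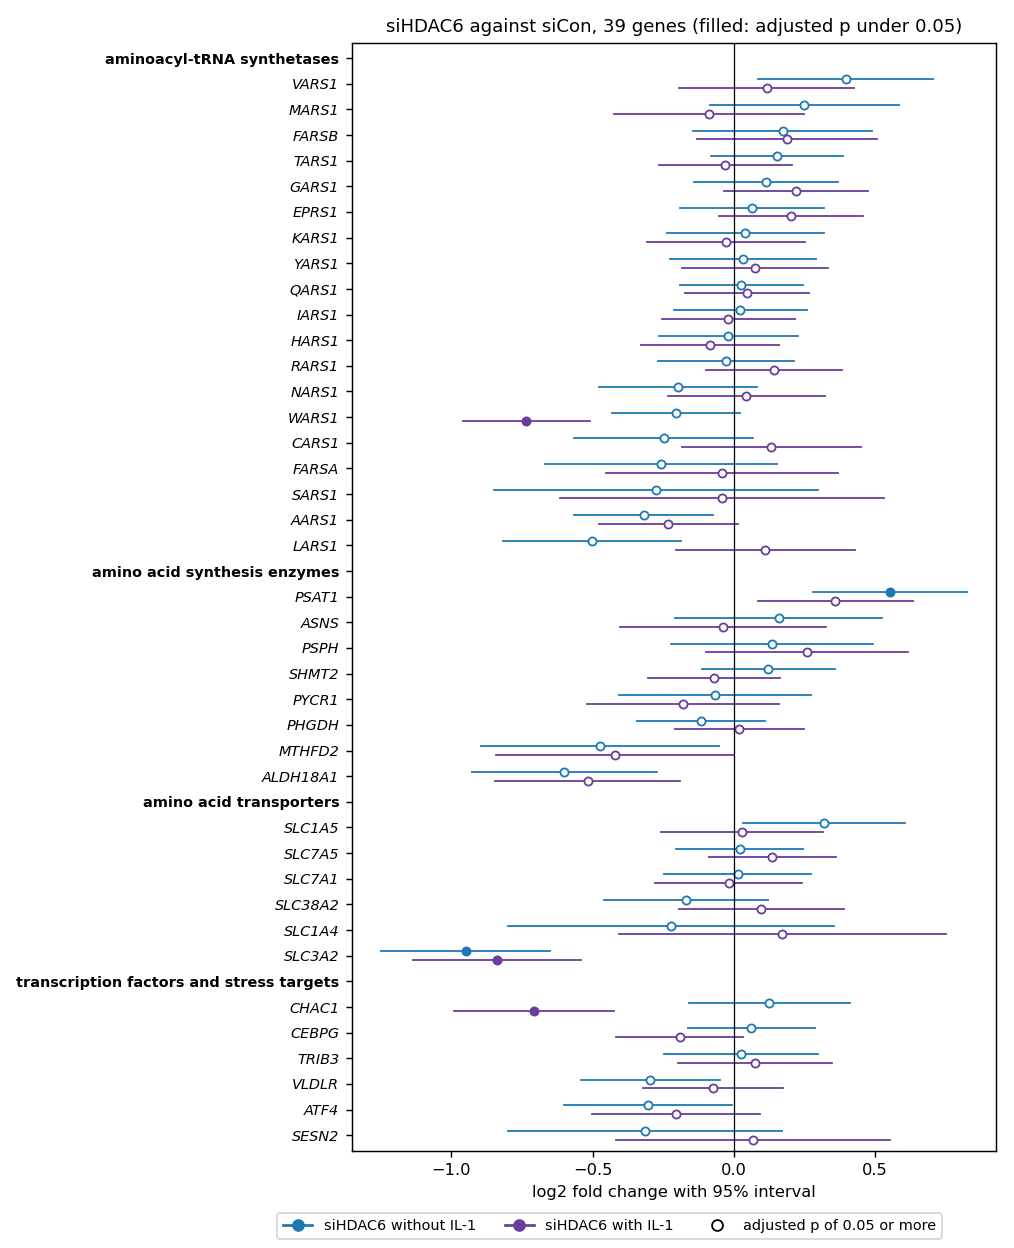
Log2 fold change of siHDAC6 against siCon (x axis, bars are 95% intervals) for the 39 genes without and with IL-1, grouped by role, filled where the adjusted p was under 0.05. SLC3A2 was the lowest value in both comparisons, at -0.95 and -0.84, and PSAT1 the highest, at 0.55 and 0.36.

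Further genes of the pathway, outside the 39, were counted from lists. Of 20 measured genes of the stress response, 10 passed the test with IL-1 in siCon cells, 7 higher and 3 lower, against 20.6% of all genes called, 9.37% higher and 11.2% lower. Their median log2 fold change was 0.19, against -0.09 over all genes. The largest log2 rises were those of the transcription factors ATF3 (2.47) and CEBPB (2.02) and of EIF2AK2 (2.34), the eIF2α kinase PKR, which is also an interferon-induced gene, followed by the transcription factor ATF5. With siHDAC6 and IL-1, 4 of the 20 were called, against 8.07% of all genes: the cytokine GDF15 (-0.89), ATF3 (-0.81) and the transcription factor DDIT3, also called CHOP (-0.77), were lower, and the glycoprotein STC2 (0.61) was higher. Without IL-1, GDF15 was lower (-0.57, adjusted p 0.020) and STC2 higher (0.47, adjusted p 0.039) with siHDAC6 too, 2 of the 20 against 4.05% of all genes.

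Of 11 measured enzymes of amino acid and folate metabolism, 5 were called with IL-1 in siCon cells, all lower, against 20.6% of all genes called and 11.2% lower. They included the aspartate aminotransferase GOT1 (-0.85) and CBS and CTH, the 2 enzymes of transsulphuration (-0.52 and -0.48). The glutamine synthetase GLUL was among them, and its mean log2 signal with IL-1, 4.68, was below the lowest detected signal, so that no size is given. With siHDAC6 the branched-chain aminotransferase BCAT1 was lower without and with IL-1 (-0.94 and -1.10, adjusted p 0.0088 and 0.0043), and GOT1 was higher with IL-1 (0.47). That is 1 of the 11 without IL-1, against 4.05% of all genes, and 2 with IL-1, against 8.07%. Of 11 other measured transporters, 2 were called with IL-1 in siCon cells (18.2%), against 20.6% of all genes. In siHDAC6 cells the same 2 were called (18.2%), against 10.3% of all genes. They were SLC43A2, a carrier of neutral amino acids, and SLC7A2, the inducible cationic transporter CAT2. Both rose, by 2.20 and 1.70 on the log2 scale in siCon cells, and by 2.03 and 1.28 in siHDAC6 cells. With siHDAC6 and IL-1, 3 of the 11 were called, against 8.07% of all genes, the glutamate transporter SLC1A3 higher (0.98) and SLC7A8 and SLC7A2 lower (-0.93 and -0.69).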

How the data were processed

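Per the labels and the deposited files, the authors gave for each probe of 8 Illumina arrays a summarised signal intensity, not normalized, with its detection p-value, and also deposited log2 values from lumi (its version not given in the sources used here). On each array these log2 values ranked the probes as the intensity did (rank correlation 1, medians 6.40 to 6.41).

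The intensities were background-corrected, quantile-normalized and log2-transformed with neqc (R 4.3.3, limma 3.58.1, offset 16), and 18045 probes with a detection p-value under 0.05 on at least 2 arrays were kept. The 14483 of these with 1 gene symbol were averaged to 11182 genes, 2690 with several probes. Platform annotation gave 27578 probes 1 symbol, 13 several and 21212 none. A model with 1 mean per group was fitted over all 8 arrays with lmFit and eBayes (4 residual and 3.79 prior degrees of freedom), with Benjamini-Hochberg adjustment across the 11182 genes. The workflow was tested on simulated data. Where a group was not detected on either array, a fold is a lower bound against the lowest detected signal in this processing. Levels of different probes cannot be set against each other, and the number of arrays limits the precision.

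The 40 genes and the other lists were chosen with earlier results of these data known, and genes named from the other lists are up to 4 called genes with the largest change per list and comparison. All of the 39 measured genes could be named, with values per array for those called. IL-1 times follow the labels. The replicate numbers were not used to pair the arrays in the fit reported here.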

Additional observations from a re-analysis of the deposited data

How the results depend on the processing

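None of the 13 single-gene results called changed direction under any alternative. Those of WARS1 with IL-1, with either siRNA, kept their call in every fit without 1 array, and these 2 and SLC3A2 with siHDAC6 without IL-1 under every other alternative. The number of the 39 genes called with IL-1 in siCon cells was 5, and 12 on the authors' log2 values, 8 by quantile normalization without background correction, 9 with an offset of 50, 11 with a trended, robust variance, and 3 with median scaling or only the arrays compared. With IL-1 in siHDAC6 cells it was 3, and 8 on the authors' values, 5 with the trended variance, 5 when both arrays of some group had to have a detection p under 0.01, and 1 with median scaling. For siHDAC6 without IL-1 it was 2, and 5 on the authors' values, 4 without background correction, 4 with the offset of 50, 6 with the trended variance, and 1 with median scaling, with no detection filter or with only the arrays compared. For siHDAC6 with IL-1 it was 3, and 5 on the authors' values, 5 with the trended variance, 0 with median scaling and 1 with only the arrays compared. For the difference of the IL-1 responses it was 0, and 1 on the authors' values. The calls over all genes moved too. With IL-1 in siCon cells 1048 genes were higher and 1252 lower in the fit reported here. On the authors' values these were 1174 and 1917, with the trended variance 1167 and 1643, and with median scaling 552 and 904. On the authors' values and with the trended variance the 39 genes were no longer called less often than all genes. Under the other settings listed for this comparison they still were. The cause of these differences was not tested.

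Without 1 array in turn the counts were 1 to 4 with IL-1 in siCon cells (1 without siCon replicate 2), 1 to 3 with IL-1 in siHDAC6 cells, 0 to 1 for siHDAC6 without IL-1 and 0 to 3 with IL-1 (0 without siHDAC6 + IL-1 replicate 2). Arrays of different groups with the same replicate number did not deviate together (correlations -0.04 to 0.05), and with the replicate number as a block the counts were 4, 3, 1, 3 and 0 in the order above. Median scaling lost the calls of SLC7A1 and CHAC1 in both of their comparisons, of LARS1 and CARS1 with IL-1, of PSAT1, and of SLC3A2 and WARS1 with siHDAC6 and IL-1. It moved the median of all genes by -0.16 for IL-1 in siCon cells and by 0.13 for siHDAC6 with IL-1. Relative to that median, WARS1, SLC3A2 and CHAC1 were then at -0.76, -0.79 and -0.79 with siHDAC6 and IL-1. CHAC1, SESN2 and SLC1A4 lay near the background on some arrays.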
